A study of Rattus norvegicus with 12 samples.

Results

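The dopamine receptors are 5 genes, Drd1, Drd2, Drd3, Drd4 and Drd5, read here in the basolateral amygdala (BLA) of rats with or without a history of sucrose snacks. They were chosen by symbol. Every probe set of the array whose platform annotation gives exactly 1 symbol, equal to one of these names, was taken, which gave 8 of 31042 probe sets tested and 5 of 14217 genes with a symbol of their own. Drd1 had 2 probe sets, Drd4 had 3, and Drd2, Drd3 and Drd5 had 1 each. All 5 genes were found, and no filter on low values was applied.

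Male Long-Evans rats, 2 to 3 months old and of 225 to 250 g, were housed singly with free chow and water. The sucrose group was offered 4 mL of 30% sucrose 2 times a day over 14 days. The control group is labelled as having water instead, though the treatment text of its samples is that of the sucrose group. The BLA was dissected on the morning of day 15, and the left and right tissue of 2 rats was combined, so that each of the 12 arrays, 6 sucrose and 6 control, stands for a pool of 2 rats. P-values measure the spread between such pools. No transgene, drug or lesion is named for either group. The deposited value is a ratio, the signal of a probe set on an array over its mean on the 6 control arrays. Such a ratio keeps no level. The 5 receptors can therefore not be ordered by abundance, a dim probe set cannot be recognised, and the presence of BLA-defining markers cannot be read from these values. The median ratio per array lay between 0.989 and 1.002. All values below are log2 ratios, each difference is the sucrose mean less the control mean with limma's standard error, and adjusted p-values are over all 31042 probe sets.

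Dopamine receptors are heptahelical receptors coupled to G proteins and fall into 2 classes. Drd1 and Drd5 encode the D1 class, which couples to stimulatory G proteins and raises cAMP, and Drd2, Drd3 and Drd4 encode the D2 class, which couples to inhibitory G proteins, lowers cAMP and opens inward-rectifying potassium channels. In the rodent forebrain Drd1 and Drd2 are most abundant in medium spiny neurons of the striatum, in largely separate cells. The amygdala receives dopamine axons from the midbrain, and both receptors are also found there, including in the intercalated and central nuclei that border the BLA. In such bulk tissue, fewer cells of a type and less RNA per cell cannot be told apart.

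No dopamine receptor probe set differed between sucrose and control pools past the threshold. Of the 8 probe sets 0 had an adjusted p under 0.05 in limma, where 0.00% of all probe sets did, and 0 had an unadjusted p under 0.05, where 7.57% of all did. The fitted difference was below 0 for 6 of 8 probe sets, where 54.3% of all probe sets lay below 0, and the median over the 8 was -0.06, against -0.01 over all probe sets. In 0 of 8 probe sets did the 2 groups separate completely, where 0.425% of all probe sets did. The authors' deposited table of 145 probe sets holds 0 of these 8.

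**Figure D1:**
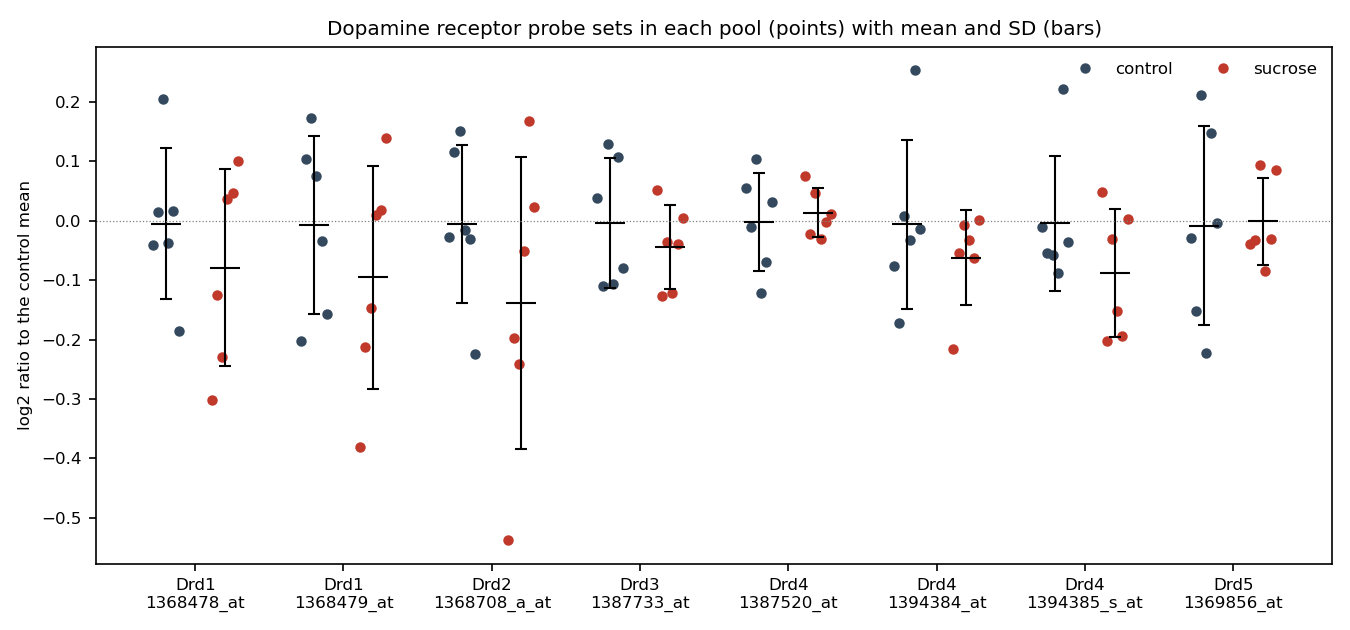
Log2 ratio to the control mean (vertical axis) of each of the 8 dopamine receptor probe sets (horizontal axis) in 6 control and 6 sucrose pools. Points are pools, and black bars give the group mean and SD. The 2 groups overlap for every probe set, and the lowest point of the plot is Drd2 in sucrose pool 1 at -0.54.

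Drd1, the main D1-class receptor of the forebrain, was read by probe sets 1368478_at and 1368479_at. On 1368478_at the sucrose pools ran from -0.30 through a median of -0.04 to 0.10, and the control pools from -0.19 through -0.01 to 0.20. On 1368479_at they ran from -0.38 through -0.07 to 0.14 after sucrose and from -0.20 through 0.02 to 0.17 in controls. On both, sucrose pools 1, 2 and 3 were below the control mean and sucrose pools 4, 5 and 6 above it, so that the groups overlapped. The difference was -0.07 ± 0.08 (SE) on the first, a ratio of 0.950 with a 95% interval of 0.848 to 1.06 (adjusted p = 0.870). It was -0.09 ± 0.09 on the second, a ratio of 0.940 with an interval of 0.826 to 1.07 (adjusted p = 0.864). Exact permutation tests over all assignments of the pools gave p = 0.398 and p = 0.383.

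Drd2 encodes the main D2-class receptor, which is also an autoreceptor on dopamine neurons. Its probe set, 1368708_a_at, had the largest spread among pools of the 8. The sucrose pools lay at -0.54, -0.20, -0.24, -0.05, 0.17 and 0.02 in the order of pools 1 to 6, and the control pools at -0.03, 0.12, 0.15, -0.02, -0.03 and -0.22. Sucrose pool 1 was the lowest of the 12 and sucrose pool 5 the highest, so the sucrose group spanned the whole range of the controls. The difference was -0.13 ± 0.10, a ratio of 0.911 with an interval of 0.785 to 1.06 (adjusted p = 0.812, exact permutation p = 0.305). Without sucrose pool 1 it was -0.05 (adjusted p = 0.937), and the 2 differences of Drd1 were then both -0.03.

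**Figure D2:**
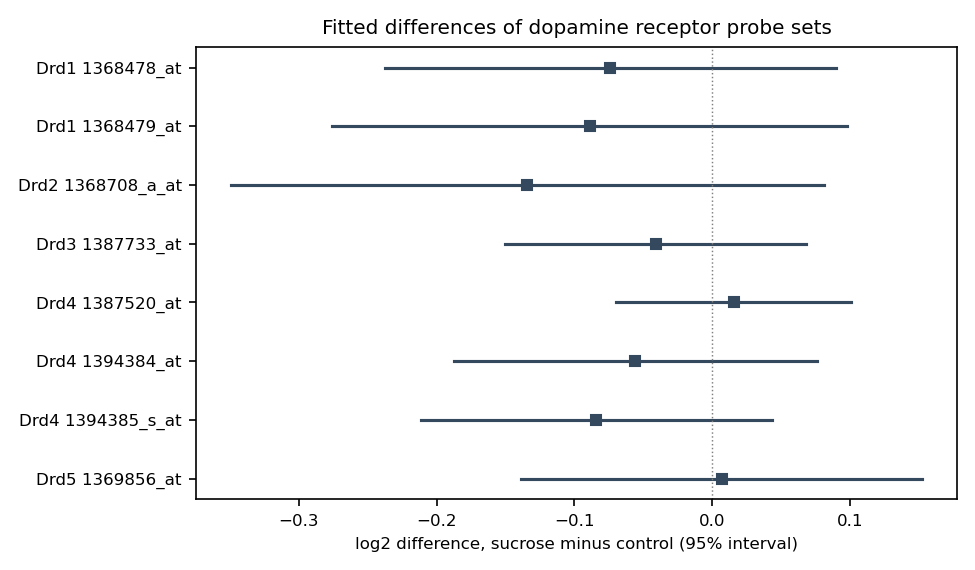
Fitted log2 difference, sucrose minus control (horizontal axis), of the 8 dopamine receptor probe sets (vertical axis). Squares are limma estimates and lines 95% intervals from 6 pools per group. Every interval includes 0, and the widest, that of Drd2, runs from -0.35 to 0.08.

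Drd3, a D2-class receptor known for its restricted place in the ventral striatum and islands of Calleja, ran from -0.13 through -0.04 to 0.05 in sucrose pools and from -0.11 through -0.02 to 0.13 in controls on 1387733_at. Sucrose pools 2 and 4 were lower than all controls, and control pool 3 was the highest. The difference was -0.04 ± 0.05, with an interval from -0.15 to 0.07 (adjusted p = 0.897). Drd5, the second D1-class receptor, ran from -0.08 through -0.03 to 0.09 after sucrose on 1369856_at. Its control pools spread more widely, from -0.22 in pool 4 to 0.21 in pool 3, and enclosed every sucrose pool. Its difference was 0.01 ± 0.07, with an interval from -0.14 to 0.15 (adjusted p = 0.992), and its sign turned without sucrose pool 3, sucrose pool 6, control pool 2 or control pool 4.

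Drd4, the D2-class receptor gene best known for its expression in frontal cortex and retina, was read by 3 probe sets, no pair of which passed in correlation over the 12 pools. On 1387520_at the sucrose pools ran from -0.03 through 0.01 to 0.08 and the controls from -0.12 through 0.01 to 0.10. On 1394384_at they ran from -0.22 through -0.04 to 0.00 after sucrose and from -0.17 through -0.02 to 0.25 in controls. On 1394385_s_at they ran from -0.20 through -0.09 to 0.05 after sucrose and from -0.09 through -0.04 to 0.22 in controls, and the groups overlapped on all 3. The differences were 0.02 ± 0.04 on 1387520_at, -0.06 ± 0.06 on 1394384_at and -0.08 ± 0.06 on 1394385_s_at. The last of these, with an interval from -0.21 to 0.04, had the lowest p of the 8 probe sets (unadjusted p = 0.180, adjusted p = 0.806 in limma). On it sucrose pools 2, 4 and 5, at -0.20, -0.15 and -0.19, were below all 6 controls, while sucrose pool 1, at 0.05, was above 5 of them. Control pool 5 stood far above the other controls on both 1394384_at (0.25) and 1394385_s_at (0.22) but was at -0.07 on 1387520_at. The suffix of 1394385_s_at marks, in the manufacturer's naming, probes that can match more than a single transcript. Averaged over its 3 probe sets Drd4 differed by -0.04 ± 0.04 (adjusted p = 0.841), and Drd1 averaged over its 2 by -0.08 ± 0.08 (adjusted p = 0.851).

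The receptors differed in how much they varied from pool to pool within a group. The residual SD around the group means was 0.20 for Drd2, above that of 96.1% of all probe sets. For Drd1 it was 0.15 and 0.17, above 88.6% and 93.2%. Drd5 had 0.13, Drd3 0.09 and the 3 Drd4 probe sets from 0.07 to 0.12, where the median of all probe sets was 0.09. These ranks are descriptions, since a spread in log2 units depends on signal level, which is not kept. Sucrose pool 1 was the lowest of the 12 pools on 4 of the 8 probe sets and control pool 3 the highest on 5. How often these pools were extreme over all probe sets was not counted. The array weights of limma, estimated over all probe sets, were lowest for sucrose pool 1 (0.69), control pool 3 (0.62) and control pool 5 (0.55). Such extremes are therefore not shown to be particular to the receptors.

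Drd1 and Drd2 varied together across the pools within each group. With group means removed, the Pearson correlation of Drd2 with Drd1 over the 12 pools was 0.90 on 1368478_at (permutation p = 2.8e-04, adjusted p = 0.0108, Spearman rho = 0.92, permutation p = 7.5e-04). It was 0.85 on 1368479_at (permutation p = 0.00121, adjusted p = 0.0201, rho = 0.90, permutation p = 5.5e-04). The 2 probe sets of Drd1 had r = 0.87 with each other (permutation p = 7.8e-04, adjusted p = 0.0174, rho = 0.91, permutation p = 3.2e-04). Without the 2 pools farthest from the median on the horizontal measure, these 3 values of r were 0.88, 0.84 and 0.79. Within the 6 sucrose pools Drd2 followed Drd1 with r = 0.91 and 0.90, and within the 6 control pools with r = 0.90 and 0.79. All p-values of correlations were adjusted over the 116 relations computed, of which 8 had an adjusted p under 0.05.

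Neither Drd1 nor Drd2 showed such a relation with the other receptors. Over the 15 pairs of a Drd1 or Drd2 probe set with one of Drd3, Drd4 or Drd5, r ran from -0.40 to 0.30 and 0 passed. Among the 10 pairs within Drd3, Drd4 and Drd5 r ran from -0.33 to 0.79, the highest being Drd3 with Drd5 (permutation p = 0.0110, adjusted p = 0.127), and 0 passed. The 3 pairs of Drd4 probe sets gave r of -0.33, 0.09 and 0.43. Within one group some were higher, with r = 0.86 for 1394384_at with 1394385_s_at in controls, where it was -0.34 in sucrose pools, and r = 0.84 for 1387520_at with 1394385_s_at in sucrose pools, where it was -0.25 in controls. Whether these correlations differ from one another was not tested.

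**Figure D3:**
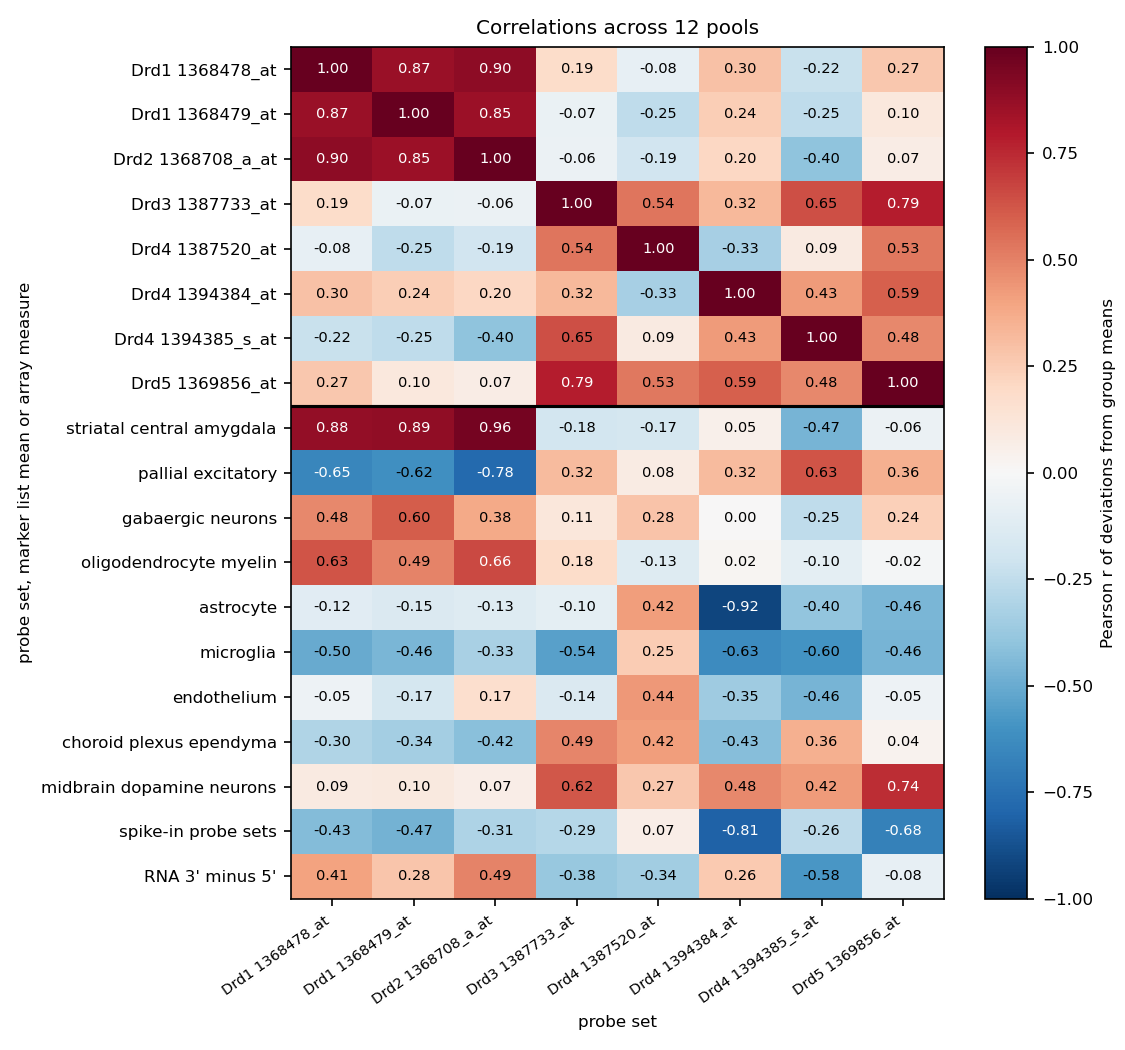
Pearson correlation across 12 pools, after removal of group means, of each dopamine receptor probe set (columns) with the other probe sets (upper 8 rows) and with marker list means, the spike-in mean and the RNA 3-prime minus 5-prime difference (lower rows). Red is positive and blue negative. The Drd1 and Drd2 columns are red against each other and against the striatal and central amygdala list, where r is 0.88, 0.89 and 0.96.

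The pool-to-pool course of Drd1 and Drd2 was also that of markers of striatal and central amygdala neurons. A list of 25 such genes, 24 of them measured on 39 probe sets and none of them a dopamine receptor, had a mean of -0.20, -0.09 and -0.10 in sucrose pools 1, 2 and 3. The mean was 0.04, 0.08 and 0.05 in sucrose pools 4, 5 and 6 and ran from -0.07 to 0.07 in controls. Drd2 followed this mean with r = 0.96 (permutation p = 3e-05, adjusted p = 0.00232) and rho = 0.96 (permutation p = 8e-05). Drd1 did so with r = 0.88 (permutation p = 8.5e-04, adjusted p = 0.0174) and rho = 0.84 on 1368478_at (permutation p = 0.00558). On 1368479_at r was 0.89 (permutation p = 9e-04, adjusted p = 0.0174) and rho 0.83 (permutation p = 0.00271). The adjusted p of rho was 0.00928 for Drd2 but 0.0719 and 0.0524 for Drd1. Without sucrose pools 1 and 5, the farthest out, r was 0.91 for Drd2 and 0.83 and 0.85 for Drd1. The list was chosen with the low striatal markers of sucrose pools 1, 2 and 3 already known. These p-values are therefore not independent support for that pattern.

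**Figure D4:**
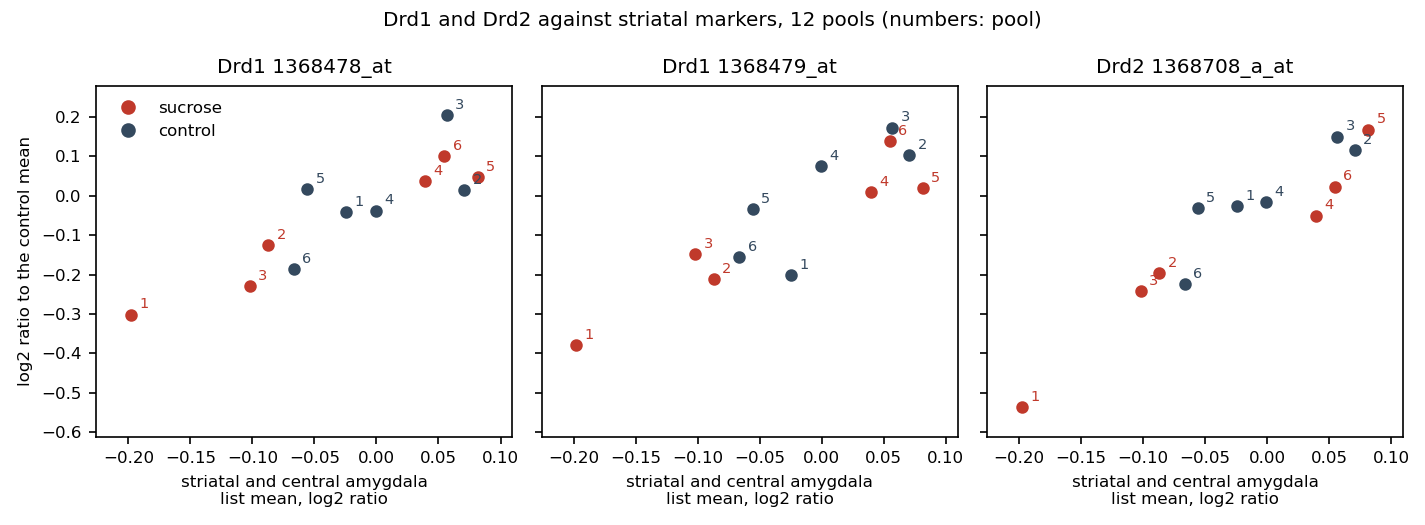
Log2 ratio of the 2 Drd1 probe sets and of Drd2 (vertical axes) against the mean log2 ratio of 24 striatal and central amygdala marker genes (horizontal axes) in 6 sucrose (red) and 6 control (blue) pools, numbered by pool. Points run from sucrose pool 1 at the lower left, with Drd2 at -0.54 and the list mean at -0.20, to the upper right.

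Several genes of that list followed Drd2 closely, and others did so weakly or not at all. These correlations over 12 pools are given as descriptions, and the genes of a pool share its array and dissection. The dopamine- and cAMP-regulated phosphatase inhibitor gene Ppp1r1b had r = 0.95 with Drd2, the G protein regulator gene Rgs9 0.97 on 1368500_a_at and 0.59 on 1382090_at, and the adenosine receptor gene Adora2a 0.93 and 0.87 on its 2 probe sets. Penk and Tac1, the peptide precursor genes of the striatal output neurons, had r = 0.86 each. The phosphodiesterase gene Pde10a had 0.69 and 0.61. Lower values were those of Crh (0.25), Foxp2 (0.38), Tshz1 (0.48 and 0.62) and Isl1 (0.53 and -0.07), while Prkcd had 0.71. Bcl11b had 0.09, 0.52 and 0.46, Rgs14 had -0.17, and Foxp1 ran from -0.50 to 0.85 over its 5 probe sets. Of the 39 probe sets 28 had r above 0.5 with Drd2 and 3 had r below 0, with a median of 0.71. Over all 20826 probe sets with 1 symbol the median was 0.02 and 7.45% were above 0.5.

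The genes whose course was most like that of each receptor were sought among the other 14216 genes, by r over the 12 pools. For Drd2 they were Gpr6, an orphan receptor gene of striatopallidal neurons (0.97), Rgs9 (0.97) and Ppp1r1b (0.95), and all 3 are on the striatal list. For Drd1 they were Map7 (0.95), Hif1a (0.93) and Tac1 (0.92) on 1368478_at and Ppp1r2 (0.92), Map7 (0.90) and Slco3a1 (0.89) on 1368479_at. Tac1 is the 1 of these on the list. Drd3 was followed most closely by Nkx2-5 (0.97), and Drd5 by Prss42 (0.95). For Drd4 they were Pax1 on 1387520_at (0.94), Fam184a on 1394384_at (0.94) and Kdm5b on 1394385_s_at (0.94). None of the 15 genes so found for Drd3, Drd4 and Drd5 is on the striatal list. The 24 values ran from 0.87 to 0.97. The highest of so many correlations over 12 pools is high for every probe set, so its size marks no relation by itself.

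No other list mean or array measure passed the threshold with Drd1 or Drd2. Markers of pallial excitatory neurons, the main cell class of the BLA, had r = -0.78 with Drd2 (permutation p = 0.00606, adjusted p = 0.0781), rho = -0.82 (permutation p = 0.00760) and r = -0.82 without control pool 5 and sucrose pool 1. With Drd1 they had r = -0.65 and -0.62 (adjusted permutation p = 0.266 and 0.291), and within the control pools r = -0.13 and -0.21. Their mean over 13 of 15 listed genes was 0.09, 0.06 and 0.08 in sucrose pools 1, 2 and 3, from -0.06 to -0.02 in sucrose pools 4, 5 and 6, and from -0.05 to 0.08 in controls. The genes of this list were not alike in sucrose pools 1, 2 and 3, each read on its probe set of lowest p. Neurod2 was there at 0.34, 0.23 and 0.24 and Fezf2 at 0.39, 0.25 and 0.21. By contrast, Nrgn was at -0.13, -0.08 and -0.04 and Lmo3 at -0.16, -0.12 and -0.05. Oligodendrocyte and myelin genes had r = 0.66 with Drd2 (permutation p = 0.0703, adjusted p = 0.340) and 0.63 and 0.49 with Drd1 (adjusted permutation p = 0.266 and 0.470). Their rho was 0.78 with Drd2 and 0.76 and 0.73 with Drd1 (adjusted permutation p = 0.117, 0.128 and 0.128). Microglia genes had r = -0.33 with Drd2 and -0.50 and -0.46 with Drd1. Their rho was -0.56 and -0.75 and -0.67. On Drd1 1368478_at its adjusted permutation p, 0.0719, equalled that of rho with the striatal mean. Sucrose pool 1, lowest for Drd1 and Drd2, also had the lowest RNA 3-prime minus 5-prime difference, at -0.14, and a choroid plexus and ependyma mean of 1.04, where the other 11 pools lay between -0.20 and 0.27. Over the 12 pools the RNA difference had r = 0.49 with Drd2 and 0.41 and 0.28 with Drd1. The choroid plexus and ependyma mean had r = -0.42 with Drd2 and -0.30 and -0.34 with Drd1, and rho of 0.05, 0.04 and 0.03. With the RNA difference as a covariate the group difference was -0.11 for Drd2 and -0.06 and -0.08 for Drd1. Any part of these measures in the course of Drd1 and Drd2 was not tested beyond such values.

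In the fit with the striatal mean as a covariate the group difference of Drd2 was -0.07 (adjusted p = 0.767) and those of Drd1 were both -0.03. With the pallial mean as a covariate, chosen after the data were seen, it was -0.05 for Drd2 (adjusted p = 0.863 in limma) and -0.02 and -0.03 for Drd1. Smaller differences were thus not particular to the striatal mean. With the myelin mean as a covariate it was -0.23 for Drd2 (unadjusted p = 0.0201, adjusted p = 0.617 in limma) and -0.14 and -0.15 for Drd1. No setting brought a receptor probe set past the threshold. The striatal mean itself was -0.04 ± 0.11 (SD, n = 6) after sucrose and 0.00 ± 0.06 in controls, an exact permutation p of 0.552.

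The sequences around the start sites of Drd1 and Drd2 are shown as a description only. They are RefSeq sequences of build GRCr8, from 250 bases before to 50 bases after the start site on the strand of the gene, and both genes lie on the plus strand. Capitals mark matches, on either strand, to the GC box GGGCGG, the cAMP response half-site TGACG, the TATA box TATAAA and the E-box CANNTG.
Drd1, chr17:10546354-10546653: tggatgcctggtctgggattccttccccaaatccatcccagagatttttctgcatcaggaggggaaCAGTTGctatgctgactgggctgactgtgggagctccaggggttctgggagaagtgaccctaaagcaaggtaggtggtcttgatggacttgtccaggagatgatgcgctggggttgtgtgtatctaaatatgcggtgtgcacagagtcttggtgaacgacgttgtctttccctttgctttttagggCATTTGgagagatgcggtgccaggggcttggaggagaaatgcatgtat
Drd2, chr8:58605153-58605452: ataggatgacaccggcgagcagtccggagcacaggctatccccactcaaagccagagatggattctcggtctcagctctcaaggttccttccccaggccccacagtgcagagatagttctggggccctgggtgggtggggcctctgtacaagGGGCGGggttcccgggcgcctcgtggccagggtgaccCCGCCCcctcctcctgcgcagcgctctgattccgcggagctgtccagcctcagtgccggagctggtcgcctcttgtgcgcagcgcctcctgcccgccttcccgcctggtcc

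The 2 windows share no match to these motifs. Drd2 has 2 GC boxes, which begin at positions -98 and -61 from the start site, and Drd1 has none but 2 E-boxes, at -184 and 3. Among 33469 RefSeq promoter windows of the same length 33.1% hold a GC box, 21.2% the cAMP half-site, 14.2% the TATA box and 72.1% an E-box. G and C make up 67.3% of the Drd2 window and 51.7% of the Drd1 window, where the median of all is 51.7%. The start site used for Drd1 lies 1116 bases inside the annotated span of the gene. Its whole window is therefore inside that span, and the bases before the span were not read. The Drd1 motifs and base content given here do not describe those bases. Drd5 also holds 2 GC boxes and 1 E-box. Drd4 holds 2 GC boxes that overlap each other, 1 cAMP half-site and 1 E-box, and Drd3 holds 0 of the 4 motifs. A match of letters is not a site, and lack of a match says nothing of a factor.

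Among the 3 Drd4 probe sets, 1394384_at was lower where the mean of the spike-in probe sets was higher. These 45 manufacturer's control probe sets are meant to read bacterial and phage RNA that can be added to samples. The correlation of 1394384_at with their mean was -0.81 (permutation p = 4e-05, adjusted p = 0.00232, rho = -0.82, permutation p = 6.5e-04), and -0.79 without sucrose pools 1 and 6. The spike-in mean ran from -0.05 to 0.06 over the 12 arrays. The same probe set was also lower where the astrocyte marker mean was higher, with r = -0.92 (permutation p = 0.00196, adjusted p = 0.0284) and rho = -0.84 (permutation p = 0.00393, adjusted p = 0.0651). Without control pool 5 and sucrose pool 1 the latter r was -0.72. The other Drd4 probe sets had r of 0.07 and -0.26 with the spike-in mean. Drd5 had r = -0.68 with it (permutation p = 0.0344, adjusted p = 0.266, rho = -0.72, permutation p = 0.0192), and its group difference with this covariate was 0.03. With the spike-in mean as a covariate the group difference of 1394384_at was -0.03, against -0.06 without it.

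**Figure D5:**
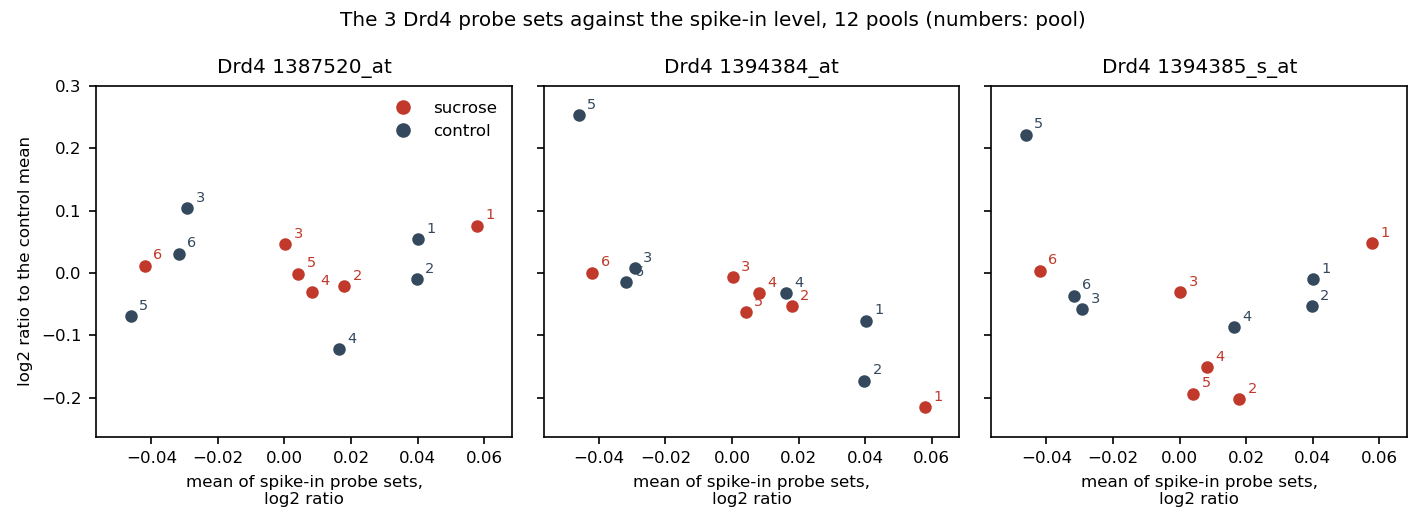
Log2 ratio of the 3 Drd4 probe sets (vertical axis) against the mean log2 ratio of 45 spike-in probe sets (horizontal axes) in 6 sucrose (red) and 6 control (blue) pools, numbered by pool. The middle panel, 1394384_at, falls from upper left to lower right, with r = -0.81, and the outer panels have r of 0.07 and -0.26.

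Genes that make, carry and break down dopamine did not differ past the threshold. Of 10 listed genes 9 were measured, on 15 probe sets, of which 0 passed in limma, 1 was higher and 0 lower at an unadjusted p under 0.05, where 4.50% and 3.07% of all probe sets were. For each gene of the pathway lists the value given is that of its probe set of lowest p. The list median was 0.00 and that of all probe sets -0.01. Maoa, an enzyme of monoamine breakdown, was 0.15 ± 0.09 (SD, n = 6) after sucrose and 0.00 ± 0.10 in controls, a difference of 0.16 ± 0.05 (adjusted p = 0.509). The dopamine transporter gene Slc6a3 differed by -0.08 ± 0.04 (adjusted p = 0.671), Pitx3, a transcription factor of midbrain dopamine neurons, by -0.10 ± 0.06 (adjusted p = 0.734), and Th, which encodes the rate-limiting enzyme of dopamine synthesis, by 0.03 ± 0.06 (adjusted p = 0.958).

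Genes of D1-class coupling were measured for 18 of 19 listed genes on 31 probe sets. None passed, and 3 were higher and 0 lower at an unadjusted p under 0.05, or 9.68% against 7.57% of all probe sets. The list median was 0.00. Prkacb, a catalytic subunit of the cAMP-dependent kinase, ran from 0.08 to 0.49 after sucrose and from -0.12 to 0.07 in controls, so that every sucrose pool was above every control pool on this probe set, as in one direction or the other on 0.425% of all probe sets. Its difference was 0.23 ± 0.07 (adjusted p = 0.426), and 2 of its 3 probe sets were higher. Adcy9, an adenylate cyclase gene, differed by 0.24 ± 0.09 (adjusted p = 0.568) and Pde10a by 0.15 ± 0.07 (adjusted p = 0.619). Gnal, the stimulatory G protein alpha subunit of striatal neurons, differed by -0.08 ± 0.06 (adjusted p = 0.817), Adcy5, the main striatal adenylate cyclase, by -0.09 ± 0.06 on the one of its 2 probe sets (adjusted p = 0.795) and Ppp1r1b by -0.03 ± 0.08 (adjusted p = 0.958).

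Genes of D2-class coupling were measured for 19 of 20 listed genes on 32 probe sets, with 0 past the threshold, 3 higher and 1 lower at an unadjusted p under 0.05, or 12.5% against 7.57% of all probe sets, and a median of -0.01. Gsk3b, a kinase downstream of the arrestin branch of D2 signalling, differed by 0.31 ± 0.07 (adjusted p = 0.376). Gnai2, an inhibitory G protein alpha subunit, differed by 0.28 ± 0.08 (adjusted p = 0.442) and was at 0.65 in sucrose pool 1. Ppp2r2a, a regulatory subunit of phosphatase 2A, differed by -0.14 ± 0.04 (adjusted p = 0.435). In the authors' deposited table Gsk3b has a mean sucrose ratio of 1.24 with p = 0.00312, and Gnai2 a ratio of 1.22 with p = 0.0193. These 2 are the only probe sets of the 4 pathway lists in that table, which was chosen on the same arrays.

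Regulators that bind, traffic or desensitise dopamine receptors were measured for 19 of 20 listed genes on 36 probe sets. None passed, and 2 were higher and 1 lower at an unadjusted p under 0.05, or 8.33%, near the 7.57% of all probe sets. The median was 0.00. Cadps2, a vesicle priming factor, differed by 0.21 ± 0.06 (adjusted p = 0.412), the receptor kinase gene Grk5 by 0.12 ± 0.05 (adjusted p = 0.612) and Dnajc14, a chaperone of receptor export, by -0.08 ± 0.03 (adjusted p = 0.596).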

How the data were processed

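The authors deposited linear ratios for 31099 probe sets on 12 arrays. Per the submitters' processing notes the values were made with RMA. No version and no account of the later division is named in the labels. The control mean of every probe set is 1 within 2e-07. The authors' deposited table adds p-values and mean ratios of 145 probe sets, per the file headers, and its test is not named. After removal of 57 manufacturer's control probe sets, 31042 were tested as log2 ratios of the deposited values with limma 3.58.1 in R 4.3.3 (group only, no variance trend, since ratios keep no level), with Benjamini-Hochberg adjustment at 0.05. The number of arrays limits the precision. One symbol was given to 20826 probe sets, several to 436 and none to 9780.

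Lists use the mean over genes of each gene's mean over probe sets. Correlations use deviations from group means and 100000 permutations within groups, two-sided. Named genes are the members, the 3 genes most like each probe set, the 3 genes of lowest p in each pathway list and a set of well-known dopamine and striatal genes. Weaker genes of the striatal and central amygdala list, and examples from the pallial list that went either way, are named beside these. Members, lists and rules were chosen with earlier results of these data known, among them the low striatal markers of sucrose pools 1, 2 and 3, so that pattern is not independent support. Alternatives were a replicate block, array weights, a variance trend, robust variance, a second quantile normalization, median centring, the linear ratios, one-symbol probe sets alone, 5 covariates (striatal, pallial and myelin means, spike-in mean, RNA 3-prime minus 5-prime difference), the exact permutation test and leaving out each pool. Pools of the same replicate number did not deviate together, which does not show whether they were processed in pairs.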

Additional observations from a re-analysis of the deposited data

Results flagged for a closer look

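Dixon's test at 95% marks a pool whose gap to its neighbour is a large share of the range of its 6 values. In 38 sets of 6 values, for the 8 probe sets and 11 list means and array measures, 3 met it, where chance gives about 1 in 20. On Drd4 probe set 1394384_at sucrose pool 1 was at -0.22, and the other sucrose pools lay between -0.06 and 0.00. On Drd4 probe set 1394385_s_at control pool 5 was at 0.22, and the other controls between -0.09 and -0.01. The astrocyte list mean was -0.17 in control pool 5 and between -0.01 and 0.05 in the other controls. Their causes were not tested.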

How the results depend on the processing

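Each of the 8 differences was recomputed under 26 alternatives, of which 5 (the replicate block, variance trend, robust variance, one-symbol probe sets and exact permutation test) leave the difference as it is by construction. Of the 168 values of the other 21 alternatives 162 kept their direction. Of the 200 values with an adjusted p, 0 passed 0.05, the lowest being 0.559 (Drd4 1394385_s_at with the pallial mean as a covariate, chosen after the data were seen). The 6 that turned sign were of values near 0. Drd5 was -0.017 with the pallial covariate, and leaving out 1 pool at a time it ran from -0.036 to 0.051. Drd4 1387520_at ran from -0.0084 to 0.037. The others kept their sign over these 12 fits, with ranges of -0.11 to -0.03 and -0.14 to -0.03 for Drd1, -0.20 to -0.05 for Drd2, -0.06 to -0.01 for Drd3, and -0.089 to -0.0041 and -0.11 to -0.04 for the other Drd4 probe sets. The counts of receptor and pathway probe sets past the threshold were 0 in every fit. Over all probe sets the count was 1 in place of 0 with the myelin covariate, without sucrose pool 3 and without sucrose pool 5, and none of these is a receptor or pathway probe set. The correlations of Drd1 with Drd2 ran from 0.77 to 0.92 and those with the striatal mean from 0.82 to 0.97 without 1 pool at a time, and kept a permutation p of at most 0.00990. Same-numbered pools of the 2 groups did not deviate together (r from -0.15 to 0.19 over all probe sets, and 1 of 6 pools correlated best with its own number). With the replicate number as a block the Drd2 difference was -0.13 (adjusted p = 0.841) and 0 receptor probe sets passed. Since ratios keep no level, how far dim signal limits these values cannot be read.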
